A study of Mus musculus with 12 samples.

Results

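Domains of accessible chromatin that lay in gene deserts were examined in mouse embryonic stem cells differentiating towards motor neurons. A desert domain was a domain at least 150 bp wide on chromosomes 1 to 19, X or Y whose midpoint was 250 kb or more from every protein-coding transcription start site (TSS). Of the 234412 domains at least 150 bp wide (wide domains) in 6 lists, 19030 met this rule. By list, these were 2861 for EBs, 3504 for progenitors, 3799 in the no Dox list, 3411 in iHoxc6, 2814 in iHoxc9 and 2641 in iHoxc10.

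Accessibility was measured by ATAC-seq, in which a transposase cuts open chromatin, in 12 samples that formed 6 groups of 2. All cells were derivatives of the Ainv15 mouse embryonic stem cell line grown as embryoid bodies (EBs). EBs and progenitors carried the genotype Ainv15(iCre). EBs were taken before patterning, and progenitors were taken after 2 days of 1 µM retinoic acid (RA) with 0.5 µM SAG, an agonist of the Hedgehog pathway. The other 4 groups received RA and SAG for 4 days. In iHoxc6, iHoxc9 and iHoxc10 cells, of the genotypes Ainv15(iFlag.Hoxc6), Ainv15(iFlag.Hoxc9) and Ainv15(iFlag.Hoxc10), a Flag-tagged Hox transgene at the Hprt locus was switched on by 3 µg/mL doxycycline (Dox) over the last 48 h, and the no Dox control was Ainv15(iFlag.Hoxc6) without Dox. Each transgene was studied in 1 inducible line, and the no Dox group did not include the iHoxc9 or iHoxc10 line.

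One list of domains was made from both samples of a group, so no value per sample, no spread between samples and no test could be had. Intervals in brackets are 95% Wilson intervals, and they express counting error alone. The lists gave positions without height or read number, so fewer cells with an open site and a weaker signal in every cell could not be told apart, and read depth was unknown. The no Dox list had additional columns and smaller gaps between domains (37 bp at the least, against 103 bp or more in the other 5), and calling settings, cell line and treatment cannot be told apart in comparisons with it. Promoters of the pluripotency genes Pou5f1 and Nanog held domains only in EBs. The promoter of Sox2, also chosen as a pluripotency marker, held 1 or 2 domains in every list. Promoters of Olig2, Nkx6-1, Pax6, Isl1, Mnx1 and Lhx3 held at least 1 domain in every list, and the erythroid gene Gata1 and liver gene Alb held 0 in every list. The muscle gene Myod1 held 1 or 2 domains in each list. A motor neuron label could thus not be checked against these promoters, as the motor neuron genes were already marked in EBs.

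Gene deserts are long stretches of the genome without protein-coding genes. Many of them border genes that encode developmental transcription factors or neuronal cell surface proteins, and some hold enhancers that act on a promoter over long distances by looping of the chromatin fibre. Hox transcription factors bind short AT-rich sequences, and those of the posterior paralog groups, such as Hoxc9 and Hoxc10, are known for sites with the core TTTAT.

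The sequences below are the central 300 bp of the widest desert region of 5 classes (on mm10, plus strand, from the RefSeq GRCm38.p6 genome), shown because these classes carry the comparisons between lists. A region was made by merging overlapping desert domains of the 6 lists. Capitals mark TTTAT or its reverse complement ATAAA, and everything else is in lower case. The EB-only sequence (chr14:107448125-107448424) came from a 1047 bp domain between Trim52 and Slitrk1, of which 67.9% was soft-masked, that is, marked as repeat. The sequence lost after induction of each of the 3 Hox genes (chr14:97754198-97754497) came from a region of 1305 bp, 415 kb from a TSS of Dach1, with a domain of 1294 bp in progenitors and 549 bp without Dox. The iHoxc6-only sequence (chr17:42029265-42029564) was part of a 606 bp domain between Mut and Ptchd4. The iHoxc9-only sequence (chr1:122501879-122502178) was part of a 986 bp domain between Ddx18 and Dpp10. The iHoxc10-only sequence (chr11:40394212-40394511) was part of a 720 bp domain between Tenm2 and Mat2b. All 5 regions were intergenic in GENCODE M21.
EB only: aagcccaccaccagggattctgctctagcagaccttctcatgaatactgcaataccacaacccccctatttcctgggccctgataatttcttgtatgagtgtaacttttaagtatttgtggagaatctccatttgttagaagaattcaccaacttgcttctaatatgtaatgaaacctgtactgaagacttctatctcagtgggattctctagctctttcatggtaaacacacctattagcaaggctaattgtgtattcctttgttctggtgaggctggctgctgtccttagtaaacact
lost in all 3 induced lists: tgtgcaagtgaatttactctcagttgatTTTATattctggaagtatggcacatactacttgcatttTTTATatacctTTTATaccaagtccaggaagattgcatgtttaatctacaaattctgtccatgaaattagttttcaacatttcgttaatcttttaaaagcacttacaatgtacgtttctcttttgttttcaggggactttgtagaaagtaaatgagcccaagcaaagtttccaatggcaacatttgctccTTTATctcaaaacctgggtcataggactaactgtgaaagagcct
iHoxc6 only: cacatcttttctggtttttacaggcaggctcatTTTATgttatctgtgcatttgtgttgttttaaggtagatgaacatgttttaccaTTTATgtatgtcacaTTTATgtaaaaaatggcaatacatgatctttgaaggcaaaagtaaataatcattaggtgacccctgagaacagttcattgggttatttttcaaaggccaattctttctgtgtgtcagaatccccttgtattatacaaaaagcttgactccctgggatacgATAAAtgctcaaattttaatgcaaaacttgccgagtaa
iHoxc9 only: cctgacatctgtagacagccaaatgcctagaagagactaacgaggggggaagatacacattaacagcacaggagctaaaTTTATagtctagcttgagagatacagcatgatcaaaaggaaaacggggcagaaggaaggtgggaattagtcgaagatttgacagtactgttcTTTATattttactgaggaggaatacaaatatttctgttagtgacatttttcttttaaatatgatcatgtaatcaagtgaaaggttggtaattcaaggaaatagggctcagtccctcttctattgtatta
iHoxc10 only: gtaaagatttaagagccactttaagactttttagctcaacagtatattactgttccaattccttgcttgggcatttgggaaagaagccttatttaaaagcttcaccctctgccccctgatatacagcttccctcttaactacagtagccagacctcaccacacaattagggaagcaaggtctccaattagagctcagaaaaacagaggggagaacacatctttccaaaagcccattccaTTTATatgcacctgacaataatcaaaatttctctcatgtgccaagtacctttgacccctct

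Capitals stood 4 times in the lost sequence, 4 times in that of iHoxc6, 2 times in that of iHoxc9, once in that of iHoxc10 and in no place of the EB sequence. These are counts of letters in single windows, and they are not evidence of binding.

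Deserts were accessible at a low density in every list. The 1003 intervals that met the distance rule had a median length of 335 kb, reached 4.91 Mb and held 581 Mb of sequence, or 22% of the sequenced bases, whereas 6.84 to 9.06% of wide domains lay in them. Desert domains numbered 4.92 per Mb of desert in EBs, 6.03 in progenitors, 6.54 in the no Dox list, 5.87 in iHoxc6, 4.84 in iHoxc9 and 4.54 in iHoxc10. The density of all wide domains was 15.8, 15.7, 17, 15.5, 11.7 and 12.8 per Mb of genome in the same order. Both densities were highest without Dox, and the lowest desert density was that of iHoxc10, whereas iHoxc9 had the lowest density over the genome.

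As a share of all wide domains, desert domains were least frequent in EBs, with 6.84% (6.61 to 7.09). Progenitors and no Dox both had 8.43% (8.17 to 8.71 and 8.17 to 8.69), and iHoxc6 had 8.3% (8.04 to 8.57), so that these 3 intervals overlapped. The iHoxc9 list had 9.06% (8.75 to 9.38), above the interval of every other list. The iHoxc10 list had 7.81% (7.53 to 8.1), below the intervals of the other day 4 lists, although its own interval met that of iHoxc6. The first place of iHoxc9 depended on the rule: with a distance of 100 kb, 19.5% of iHoxc9 and 19.8% of no Dox domains qualified, and with a minimum width of 300 bp the shares were 6.64 and 6.98%.

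**Figure D1:**
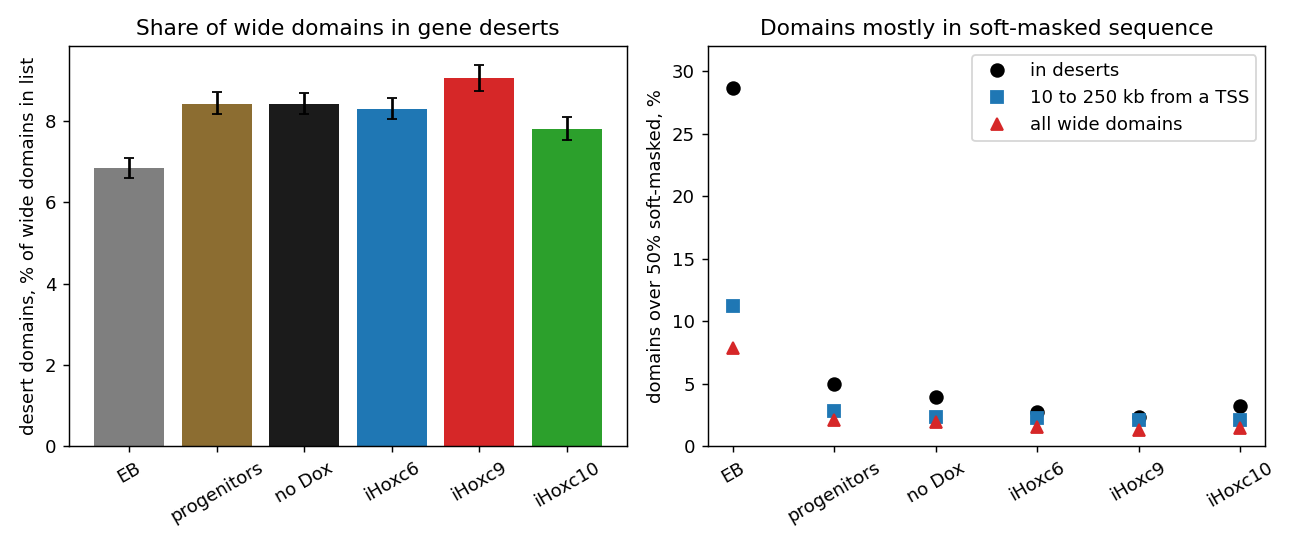
The left panel shows desert domains as a percentage of wide domains in each list, with 95% Wilson intervals as error bars. The right panel shows the percentage of domains over 50% soft-masked in deserts, 10 to 250 kb from a TSS and among all wide domains. EBs have the lowest share on the left (6.84%) and the highest on the right (28.6% in deserts).

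Desert domains were narrower than wide domains in general but close to other domains far from promoters. Their median width was 265 bp in EBs, 309 bp in progenitors, 322 bp without Dox, 303 bp in iHoxc6, 288 bp in iHoxc9 and 306 bp in iHoxc10. Medians of all wide domains were 356 to 417 bp, and those of domains 10 to 250 kb from a TSS were 282 to 328 bp. Desert domains of 500 bp or more made up 12.7% in EBs, 20.5% in progenitors, 24.6% in the no Dox list, 19.3% in iHoxc6, 17% in iHoxc9 and 21.1% in iHoxc10. EB desert domains were thus the narrowest and no Dox ones the widest, up to 3730 bp.

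Most desert domains were intergenic, from 72.2% in iHoxc6 to 76% in EBs. Introns of protein-coding genes held 13 to 15.8%, introns of non-coding genes or pseudogenes held 8.28 to 10.1%, and exons of protein-coding genes held 0.341 to 0.559%. Those in introns of protein-coding genes lay in genes long enough that a site inside the gene could be 250 kb from its own TSS. The TSS of non-coding genes and pseudogenes were not counted by the rule, so domains in these could lie at any distance from them. The median distance to the nearest TSS was 435 kb in EBs, 436 kb in iHoxc9 and 410 or 411 kb in the other lists. Domains 1 Mb or more from any TSS numbered 307 in EBs, 259 in progenitors, 311 in the no Dox list, 258 in iHoxc6, 277 in iHoxc9 and 213 in iHoxc10. Near the limit of the rule, 696 to 1074 wide domains per list lay 200 to 250 kb from a TSS and 503 to 757 lay 250 to 300 kb away, and 5 to 17 desert domains per list were exactly 150 bp wide.

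The EB desert domains stood apart in sequence. Over 50% of the bases were soft-masked in 28.6% of EB desert domains, compared with 2.31% in iHoxc9 to 4.97% in progenitors. Among EB domains 10 to 250 kb from a TSS the share was 11.2%, and among all wide EB domains it was 7.86%. It was higher with distance inside the deserts too, at 23.5% of EB domains 250 to 500 kb from a TSS, 32.9% at 500 to 1000 kb and 44.6% beyond 1000 kb. It was also higher where a domain was in no other list: 41.2% (38.8 to 43.6) of the 1610 EB desert domains in no other list were mostly masked, compared with 6.04% (4.24 to 8.54) of the 480 in all other lists. The masked share of the sequence itself was 42.6% in deserts and 36.4% in the genome. How reads with several possible positions were counted is not given in the sources used here, and the part of repeats in the EB result was not tested. The median GC content of desert domains was 48.6% in EBs and 43.4 to 44.5% in the other lists, lower in each list than the 52.4 to 55.9% of all wide domains.

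EBs and progenitors had fewer of their desert domains in common than of their domains elsewhere. Of 3504 progenitor desert domains, 944 (26.9%, 25.5 to 28.4) overlapped an EB domain of any width by at least 1 bp, and were thus held by EBs. EBs held 62.9% of all wide progenitor domains and 44.4% (43.7 to 45.1) of those 10 to 250 kb from a TSS. In the other direction, 1824 of 2861 EB desert domains (63.8%, 62 to 65.5) were absent from progenitors, compared with 32.6% of all wide and 47.7% of distal EB domains. Deserts therefore had the lowest sharing of these classes in both directions. With every list cut to its 31062 widest domains, EBs held 15.5% of the progenitor desert domains.

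The later step without Hox induction left more in common. Of 3799 no Dox desert domains, 2630 (69.2%, 67.7 to 70.7) were held by progenitors, compared with 80.9% of all wide domains and 74.2% of distal ones. No Dox in turn held 71% (69.5 to 72.5) of the progenitor desert domains and 84% of all wide progenitor domains. The lists nearest to each other were no Dox and iHoxc6, which came from the same line. Of no Dox desert domains 81.9% were held by iHoxc6, and 84.3% of iHoxc6 ones by no Dox, against 87.7 and 91.1% of all wide domains. The iHoxc9 list was less alike, holding 60.4% of no Dox desert domains and having 68.2% of its own held by no Dox. Over all wide domains these shares were 72.2 and 88.2%. EBs held 22.2 to 26.9% of the desert domains of any other list, against 58.2 to 66.3% of all wide domains.

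**Figure D2:**
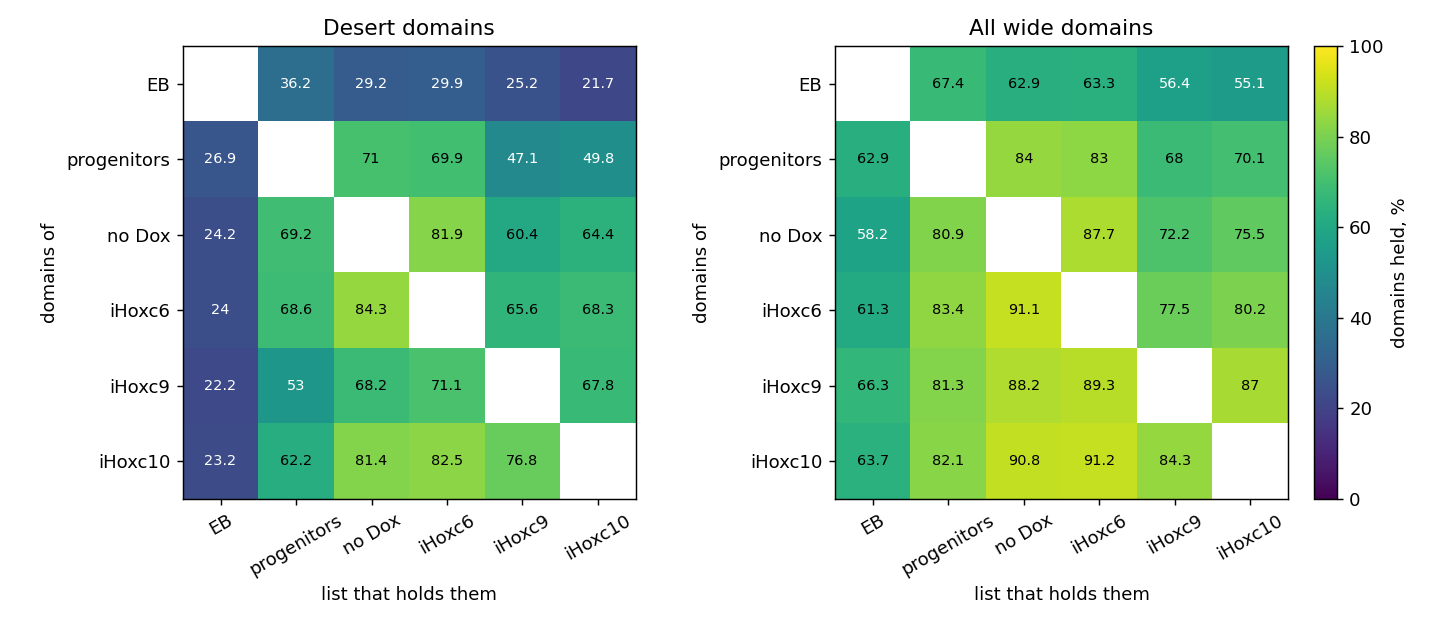
Each cell gives the percentage of the domains of the row's list that are held by the column's list, for desert domains (left) and all wide domains (right). The EB row and column are lowest in deserts, at 21.7 to 36.2%, whereas the same cells range from 55.1 to 67.4% over all wide domains.

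Merged, the desert domains formed 9320 regions. Of these, 34.4% were held by 1 list and 7.91% (737 regions) by all 6, whereas 24.3% of 83226 regions made from all wide domains were held by 1 list and 28.3% by all 6. EB-only regions were the most numerous class, with 1610 (17.3%, 16.5 to 18.1), compared with 13.2% over all regions. Another 969 (10.4%) were held by every list but EBs, against 7.07% over all regions. Progenitors alone held 564 (6.05%, against 4.01%), no Dox alone 246 (2.64%, near the 2.63% over all regions), and the 4 day 4 lists and no other 422 (4.53%, against 2.63% over all regions). EBs were the only list of their stage and 4 lists shared the last day, so these classes do not have equal chances of being held by 1 list.

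**Figure D3:**
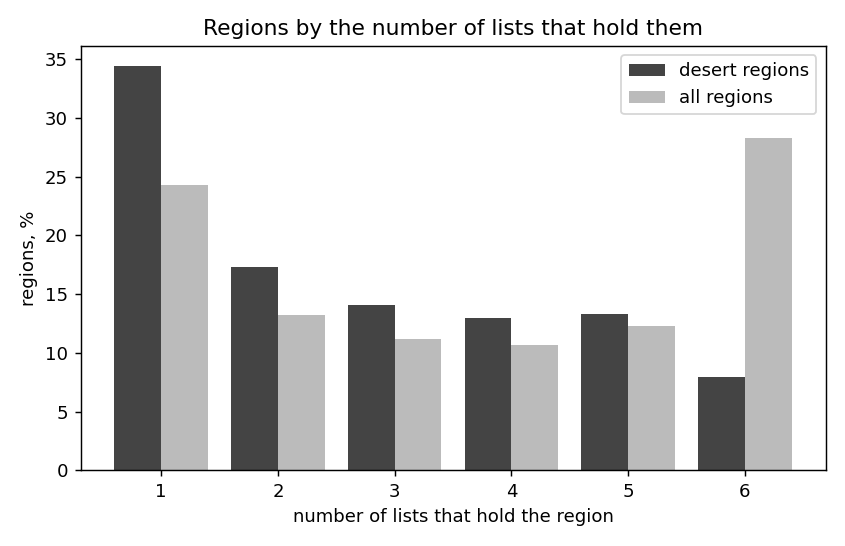
Bars give the percentage of regions held by 1 to 6 lists, for regions merged from desert domains (dark) and from all wide domains (light). Desert regions are most often in 1 list (34.4%) and regions over the genome most often in all 6 (28.3%).

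Among the 3 widest regions of each single-list class, an EB-only region of 1023 bp (chr8:92071528-92072550) lay between Irx3 and Irx5, homeobox genes of neural and limb patterning, 270 kb and 286 kb from their TSS. A progenitor-only region of 917 bp (chr8:32383259-32384175) lay in an intron of Nrg1, which encodes a growth factor of the neuregulin family. Another of 846 bp lay in an intron of Ptprt, a receptor tyrosine phosphatase gene. The second widest no Dox-only region was 560 bp wide in an intron of Lsamp, a gene for a neuronal adhesion protein, while the widest one, of 660 bp, was 92% soft-masked.

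After Hox induction, the list that differed most from its controls in deserts was that of iHoxc9. Induction-associated desert domains, which overlapped no progenitor and no no Dox domain, numbered 797 of 2814 (28.3%, 26.7 to 30) in iHoxc9, 415 of 2641 (15.7%, 14.4 to 17.2) in iHoxc10 and 375 of 3411 (11%, 9.99 to 12.1) in iHoxc6. Over all wide domains these shares were 10.1, 7.31 and 5.61%, and among distal domains 16.7, 11.8 and 8.08%. The intervals of the 3 lines in deserts did not overlap. Deserts held 25.5% (24 to 27.1) of all induction-associated wide domains of iHoxc9, 16.8% of those of iHoxc10 and 16.3% of those of iHoxc6. The 3 lists share their control lists, so these values are not independent of each other. The values moved with the domains allowed: with domains of any width they were 48.1% in iHoxc9, 29.8% in iHoxc10 and 46.6% in iHoxc6, so that iHoxc6 exceeded iHoxc10, and with lists cut to equal length they were 52.8, 37.3 and 26.7%. The iHoxc9 share was the highest of the 3 under all 11 alternatives.

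Induction-associated shares differed with distance. In iHoxc9 the share was 2.13% (1.92 to 2.36) of wide domains under 10 kb from a TSS, 20.3% at 50 to 250 kb, 25.3% (23.2 to 27.4) at 250 to 500 kb, 30.1% (27.1 to 33.3) at 500 to 1000 kb and 41.5% (35.9 to 47.4) beyond 1000 kb. In iHoxc10 it was 2.55% under 10 kb, 14.9% (13.3 to 16.7) at 250 to 500 kb and 18.3% (13.7 to 24) beyond 1000 kb. In iHoxc6 the 3 bins inside deserts had 10.4, 12.3 and 11.6%, with overlapping intervals. Within deserts, 46.7% of the induction-associated iHoxc9 domains and 37.6% of its other desert domains were 500 kb or more from a TSS.

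**Figure D4:**
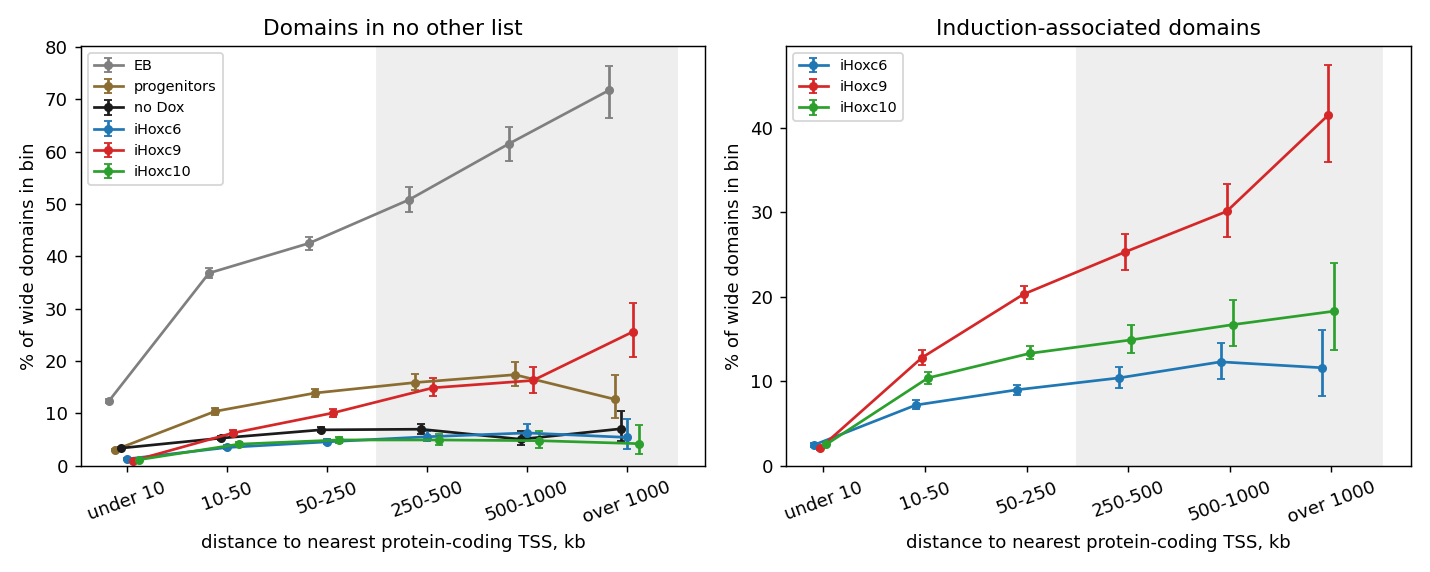
Wide domains are grouped by distance to the nearest protein-coding TSS in kb, with desert bins shaded, and points give the percentage in no other list (left) and the percentage that is induction-associated (right) with 95% Wilson intervals. The EB line on the left reaches 71.7% beyond 1000 kb, and on the right iHoxc9 reaches 41.5% while iHoxc10 and iHoxc6 stand at 18.3 and 11.6%.

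Width separated the lines further. Of desert domains 500 bp or wider, 65 of 478 were induction-associated in iHoxc9 (13.6%, 10.8 to 17), 15 of 556 in iHoxc10 (2.7%, 1.64 to 4.4) and 6 of 659 in iHoxc6 (0.91%, 0.418 to 1.97). Of those from 150 bp to under 300 bp the shares were 35.7, 24.4 and 18.7%. The median width of induction-associated desert domains was 256 bp in iHoxc9, 236 bp in iHoxc10 and 223 bp in iHoxc6, compared with 310, 322 and 319 bp in the other desert domains of these lists. EBs held 2.76% of the induction-associated desert domains in iHoxc9, 3.61% in iHoxc10 and 4.8% in iHoxc6.

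Desert domains present in progenitors and without Dox were lost most often in iHoxc9 as well. Of 2489 progenitor desert domains held by no Dox, 949 (38.1%, 36.2 to 40.1) overlapped no iHoxc9 domain, 827 (33.2%, 31.4 to 35.1) no iHoxc10 domain and 328 (13.2%, 11.9 to 14.6) no iHoxc6 domain. Over all wide domains 21.3, 18.6 and 7.03% were lost, and among distal domains 31.8, 27.8 and 10.4%. In all 3 induced lists 229 (9.2%) were absent, against 4.65% of all wide domains. The order of the lines held under all 11 alternatives, while the iHoxc6 share was 20.3% when only domains of 150 bp or more of the induced list counted. The iHoxc9 and iHoxc10 lists were also the shortest, with 31062 and 33814 wide domains against 41107 in iHoxc6, and the part of list length in these losses was not tested beyond the lists cut to equal length, which gave 38.4% in iHoxc9, 28.9% in iHoxc10 and 18.5% in iHoxc6.

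Among merged regions with an induced domain of 150 bp or more and no progenitor or no Dox domain, 474 were held by iHoxc9 alone (5.09% of desert regions, 4.66 to 5.55, against 1.98% over all regions). There were 206 for iHoxc6 alone (2.21 against 1.57%) and 132 for iHoxc10 alone (1.42%, 1.2 to 1.68, against 1.21%, so that deserts were near the genome). The iHoxc9 and iHoxc10 lists together held 188 (2.02 against 0.996%), iHoxc6 and iHoxc9 133 (1.43 against 0.697%), iHoxc6 and iHoxc10 79 (0.848 against 0.595%), and all 3 lists 106 (1.14 against 0.775%). EBs could hold a region of any of these classes, and all classes rest on the same control lists.

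Some of the widest of these regions were as follows. An iHoxc9-only domain of 799 bp (chr16:67305169-67305967) was in an intron of Cadm2, which encodes a synaptic adhesion molecule, and another of 731 bp lay between Man1a and Msl3l2. A region of iHoxc9 and iHoxc10 (chr12:94560903-94561871), between Sel1l and the adhesion and guidance gene Flrt2, had domains of 969 bp and 521 bp. A region of iHoxc9 and iHoxc10 beside Nxph1, a gene for a secreted neurexin ligand, had domains of 1018 bp and 338 bp. A region of all 3 lists (chr8:26718446-26719249) was 258 kb from Zfp703 and had domains of 313 bp in iHoxc6, 766 bp in iHoxc9 and 663 bp in iHoxc10. The second widest iHoxc6-only domain, of 522 bp, lay between Ebf1, a transcription factor gene, and Clint1. Among regions lost in all 3, one of 930 bp (chr3:149810585-149811514) lay between the adhesion receptor genes Adgrl2 and Adgrl4, with a domain of 930 bp in progenitors but 100 bp without Dox.

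Short sequences were counted on both strands in the central 150 bp of each domain. TTTAT, the posterior Hox core, was present in 26% of EB desert domains, 38.2% in progenitors, 41.7% in the no Dox list, and 42.8% in iHoxc6. The iHoxc10 list had 49.1% (47.2 to 51), and iHoxc9 was highest with 57.8% (56 to 59.6). Over all wide domains it was present in 15.5% in EBs, 22% in progenitors, 23.7% for no Dox, 23.1% for iHoxc6, 27.3% for iHoxc9 and 24.3% for iHoxc10. In iHoxc9, 75.8% (72.7 to 78.6) of the induction-associated desert domains and 50.7% (48.5 to 52.9) of the others held it, and in iHoxc10 62.2% (57.4 to 66.7) and 46.7% (44.6 to 48.8). In iHoxc6 the 2 shares were 45.1% (40.1 to 50.1) and 42.5% (40.8 to 44.3), with overlapping intervals. Induction-associated domains of the whole genome held TTTAT in 72.7% in iHoxc9, 52.5% in iHoxc10 and 39.9% in iHoxc6. The median GC content of induction-associated desert domains was 40.9% in iHoxc9, 43.3% in iHoxc10 and 43.1% in iHoxc6, against 44.5, 44.6 and 44.6% in the others, and the part of base composition in the TTTAT shares was not tested.

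TAAT, a core of many homeodomain sites, was present in 82.7, 81.9 and 82.9% of induction-associated desert domains of iHoxc9, iHoxc10 and iHoxc6, and in 72.7, 71.7 and 71.4% of the others. The longer Pbx-Hox sequence TGATTTAT, which contains TTTAT, was found in 5.52% (4.14 to 7.33) of the induction-associated iHoxc9 desert domains and 3.37% (2.67 to 4.25) of the others, with overlapping intervals, and in 5.73% of all induction-associated iHoxc9 domains. In iHoxc10 it was in 3.13 and 2.96%, and in iHoxc6 in 2.13 and 2.34%, of the induction-associated and other desert domains. The octamer ATGCAAAT, known as a site of Oct factors, was present in 4.82% (4.1 to 5.67) of EB desert domains and 2.04% of all wide EB domains, and in 2.08 to 2.71% of the desert domains of the other 5 lists. The Sox-type sequence CATTGT was most frequent in progenitor desert domains, at 23.4% (22 to 24.8) against 12% of all wide progenitor domains. CNAGGNGGC, a core of the CTCF site, was rarer in deserts than over all wide domains, at 3.64% against 6.78% in EBs and 1.97% against 5.54% in progenitors.

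Desert domains were found in most deserts. Of the 1003 deserts, 813 (81.1%) held a desert domain of at least 1 list, 475 (47.4%) held one of every list, and 63.1 to 70% held one of a given list. The fullest 101 deserts of each list held 40.6 to 44.1% of its desert domains in 27.9 to 33.3% of the desert sequence. From EBs to progenitors, 416 deserts had more domains and 239 had fewer. From no Dox to iHoxc9, 152 had more and 443 fewer, and to iHoxc10 118 had more and 480 fewer. The lists differed in length over the genome too, with 45088 wide domains for no Dox, 31062 for iHoxc9 and 33814 for iHoxc10. Desert domains made up 8.43, 9.06 and 7.81% of these. The part of list length in the counts of deserts was not tested.

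The interval with the most domains in EBs, progenitors, no Dox and iHoxc6 was no true desert. Between Adam6a and Zfp386 (chr12:113793908-115797724) there were 70 EB, 38 progenitor, 55 no Dox, 33 iHoxc6, 27 iHoxc9 and 21 iHoxc10 domains. It held 150 annotated antigen receptor gene segments, those of the immunoglobulin heavy chain variable region, which the rule did not count because they are not annotated as protein-coding. In all, 3 intervals held 428 such segments, with 95 desert domains in EBs, 48 in progenitors, 71 in the no Dox list, 43 in iHoxc6, 37 in iHoxc9 and 29 in iHoxc10. Without them the share of desert domains was 6.63% in EBs and 8.95% in iHoxc9.

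Several other intervals differed between EBs and progenitors. Between Sorcs3 and Sorcs1, genes for neuronal sorting receptors, EBs had 8 domains, progenitors 31, no Dox 18, iHoxc6 14, iHoxc9 10 and iHoxc10 8, so that progenitors stood above every other list. Between Lcorl and Slit2, which encodes a repulsive axon guidance ligand, the numbers were 3, 19, 16, 15, 10 and 8 in the same order, lowest in EBs. Between Slc10a2 and Efnb2, an ephrin ligand gene, they were 14, 28, 21, 18, 22 and 15. The reverse held between Hace1 and Grik2, a glutamate receptor gene, with 22 in EBs and 6 to 10 in the other lists. Next to Zeb2, a transcription factor gene of neural development, EBs also had the most, with 27 against 11 to 24. Between Sall1 and Tox3 progenitors had 17 and the other lists 5 to 10.

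Other intervals had their highest numbers on day 4. Between Tmem182 and Pou3f3, a POU factor gene of neural progenitors, there were 6 domains in EBs, 9 in progenitors, 22 in the no Dox list, 13 in iHoxc6, 8 in iHoxc9 and 11 in iHoxc10, so that no Dox was highest and all induced lists were lower. Between Nr2f1, a nuclear receptor gene, and Arrdc3 there were 14, 24, 30, 27, 24 and 27, with all later lists above EBs. Between Fam181b and Tenm4, a teneurin gene of neuronal adhesion, there were 11, 22, 24, 19, 16 and 10, lowest in iHoxc10 and EBs.

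In iHoxc9 the largest excess over no Dox was 10 domains, in 2 intervals. Between Sel1l and Flrt2 there were 11 EB, 15 progenitor, 15 no Dox, 19 iHoxc6, 25 iHoxc9 and 13 iHoxc10 domains, and 17 of the 25 in iHoxc9 were induction-associated, the most in any desert. Between Brinp3 and Pla2g4a iHoxc9 had 15 domains, close to the 16 of EBs, whereas progenitors had 8, no Dox 5, iHoxc6 3 and iHoxc10 1. Of these 15, 8 were induction-associated. Between the protocadherin genes Pcdh20 and Pcdh9 iHoxc9 had 27, EBs 26, progenitors 20, no Dox 21, iHoxc6 16 and iHoxc10 15. The numbers of iHoxc9 and EBs were thus close. Of the iHoxc9 domains, 12 were induction-associated, against 2 in iHoxc10 and 0 in iHoxc6. Close numbers in EBs and iHoxc9 do not show that the same sites were open. Over all deserts EBs held 22.2% of iHoxc9 desert domains and 2.76% of the induction-associated ones.

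The largest excess of iHoxc10 over no Dox was 6 domains, in 1 interval. It lay between Thap1 and Zfp703, a zinc finger gene, and was 319 kb long. There were 0 domains in EBs, 5 in progenitors, 9 in the no Dox list, 11 in iHoxc6, 9 in iHoxc9 and 15 in iHoxc10. An excess of 5 was found in 2 intervals, of which the longer was that between Zfp608 and Gramd3. There were 4, 17, 18, 16, 12 and 23, and 5 of the iHoxc10 domains were induction-associated against 1 in iHoxc9 and 0 in iHoxc6. For iHoxc6 the largest excess over no Dox was 4 domains, reached in 8 intervals, the 2 longest of which were that between Sel1l and Flrt2 and that between Olfm4 and the protocadherin gene Pcdh17, where no Dox had 16 and iHoxc6 had 20. Between Celf4 and Pik3c3 there were 17, 20, 23, 24, 19 and 15. Between Got2 and Cdh8, a cadherin gene, an interval chosen after its values were seen, all 3 lines had induction-associated domains, 5 in iHoxc6, 11 in iHoxc9 and 5 in iHoxc10. With 1 list a group, none of these differences in number had an error to be set against.

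**Figure D5:**
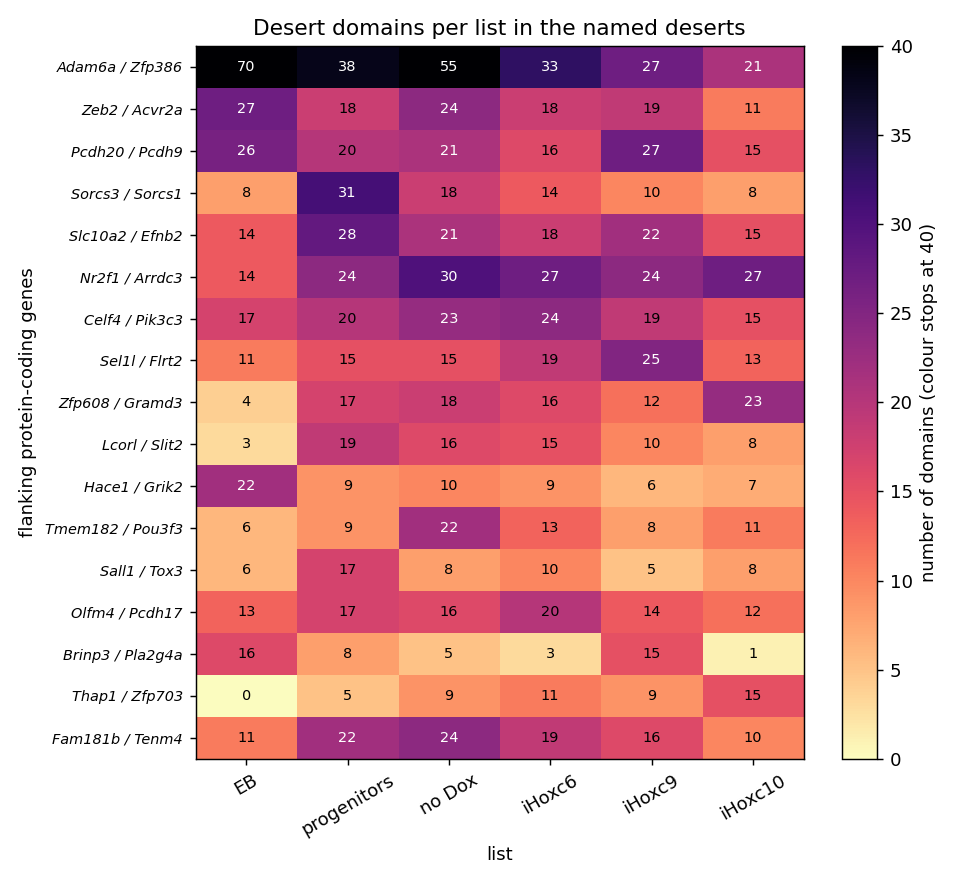
Rows are the named deserts by their flanking protein-coding genes, columns are the 6 lists, and each cell gives the number of desert domains, shaded up to 40. The interval next to Adam6a is highest in EBs (70), and that next to Zfp703 runs from 0 in EBs to 15 in iHoxc10.

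Flanking genes were examined with lists of neural and motor neuron transcription factors, pluripotency genes, and adhesion and axon guidance genes. The lists were fixed with earlier results of these data known, so the shares below are descriptions and no independent test. Of 120 adhesion and guidance genes, 97 (80.8%) flanked a desert, as did 55 of 123 neural transcription factor genes (44.7%) and 12 of 49 pluripotency genes (24.5%), compared with 7.47% of all protein-coding genes. The deserts of adhesion and guidance genes held a domain in 140 of 146 cases (95.9%), and those of neural transcription factor genes in 66 of 71 (93%). Those of pluripotency genes did in 12 of 14 (85.7%), and 81.1% of all deserts did. The adhesion list was in long deserts, with a median of 770 kb, in which a domain is more likely to be found, and the densities were 4.63 per Mb in EBs, 5.59 in progenitors, 5.7 in the no Dox list, 5.2 in iHoxc6, 4.56 in iHoxc9 and 3.97 in iHoxc10, each below that of all deserts.

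Deserts of neural transcription factor genes were denser in every list, with 6.77 domains per Mb in EBs, 9.92 in progenitors, 11.4 in the no Dox list, 10.3 in iHoxc6, 7.51 in iHoxc9 and 8.63 in iHoxc10. From EBs to progenitors, 46 of these 71 deserts had more domains and 14 fewer (64.8 and 19.7%, against 41.5 and 23.8% of all deserts). Beside Meis1, which encodes a Hox cofactor, EBs had 7 domains, progenitors 15, no Dox 23, iHoxc6 19, iHoxc9 12 and iHoxc10 20. Beside Sox9, a neural and glial factor gene, the numbers were 13, 29, 31, 31, 17 and 23, and beside Sox11, of immature neurons, 6, 7, 13, 15, 11 and 20. Beside Isl1, a motor neuron gene, they were 9, 12, 15, 18, 13 and 12. EBs had the lowest number at each of these 4 genes, and iHoxc9 had the lowest of the day 4 lists at Meis1, Sox9 and Sox11. The 4 were picked from the 55 flanking genes of this list, and others differed. EBs had the highest number beside Zeb2 (27, against 11 to 24), Zic4 (10, against 3 to 9) and Onecut1 (5, against 0 to 3). Beside Pou3f2, iHoxc9 had 22 domains, as did no Dox, against 20 in iHoxc6 and 19 in iHoxc10.

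From no Dox to iHoxc9, 8 of the 71 deserts of neural transcription factor genes had more domains and 45 fewer. These were 11.3 and 63.4%, against 15.2 and 44.2% of all deserts. To iHoxc10, 14 had more and 43 fewer (19.7 and 60.6%, against 11.8 and 47.9% of all deserts). To iHoxc6, 18 had more and 28 fewer (25.4 and 39.4%, against 19.7 and 32.2%). Of the 146 deserts of adhesion and guidance genes, 30 had more and 78 fewer in iHoxc9 (20.5 and 53.4%, against 15.2 and 44.2% of all deserts). In iHoxc10 20 had more and 94 fewer (13.7 and 64.4%, against 11.8 and 47.9%), and in iHoxc6 40 and 70 (27.4 and 47.9%, against 19.7 and 32.2%). Beside adhesion and guidance genes, gains and falls were thus both more frequent than over all deserts in each induced list. Beside neural transcription factor genes falls were more frequent too, but gains in iHoxc9 were less frequent. The part of desert length in these differences was not tested. The deserts of neural transcription factor genes were denser than all deserts, and the part of density in their counts was not tested. Of iHoxc9 domains beside neural transcription factor genes, 19.6% (15.4 to 24.6) were induction-associated, below the 28.3% of all iHoxc9 desert domains, whereas beside adhesion and guidance genes 33.3% (30.1 to 36.7) were. In iHoxc10 these shares were 14.9 and 15.6%, with 15.7% over all deserts. For iHoxc6 they were 8.7 and 11.9%, with 11% over all deserts. The iHoxc9 share was higher with distance from a TSS, as given above, and deserts of adhesion genes were long. The part of distance and desert length in these shares was not tested.

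Deserts of pluripotency genes had fewer domains in EBs than later, with 39 in EBs, 69 in progenitors, 70 in the no Dox list, 63 in iHoxc6, 45 in iHoxc9 and 55 in iHoxc10. Per Mb there were 6 in EBs and 10.6 in progenitors, against 4.92 and 6.03 over all deserts, which also had fewer in EBs than in progenitors. Beside Sox2, which is also a gene of neural progenitors, EBs had 2 domains, progenitors 12, no Dox 14, iHoxc6 15, iHoxc9 6 and iHoxc10 13. Beside Sall1 progenitors had 17, as given above. Beside Nr5a2, a nuclear receptor gene, no Dox had 18 and the other lists 11 to 13, and beside Klf4 there were 1 to 4 in each list.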

How the data were processed

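Per the labels and the study's methods, the authors aligned ATAC-seq reads to mm10 by Bowtie2 and ran DomainFinder on both samples of a group together to obtain accessible domains. The submitters' processing notes give Bowtie2 2.2.2 and Picard 2.8.2. The deposited lists hold start and end positions in bp and no count, score or p-value per domain, and no other unit was used. The no Dox list has 3 more columns, which are constant, and its name gives another day than its label. The label was used. Start positions were taken to count from 0, as BED files do, and are printed from 1. Their base was not stated, so positions may be off by 1 bp. Domains on other sequences (135 to 185 per list) were left out.

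Genes came from GENCODE M21 (54327 protein-coding TSS positions) and sequence with its soft-masking from RefSeq GRCm38.p6. Distance was taken from the midpoint of a domain. A desert was the stretch between neighbouring protein-coding TSS without the 250 kb at each end. Domains were held by another list when they overlapped a domain of any width by at least 1 bp. Distal domains were wide domains 10 to 250 kb from a TSS. Promoters were TSS ± 1 kb (1000 bp). Shares have 95% Wilson intervals for counting only, and the depth behind a domain is unknown.

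Named genes flank the 3 deserts with the most members in a list, the 2 with the largest gain and the 2 with the largest fall in members in each comparison, and the 3 widest regions of each class, or belong to the 3 gene lists. Other names are given with the table they top, chosen after their values were seen. The members, gene lists and comparisons were chosen with earlier results of these data known. Code was tested on simulated domains with known answers. Python 3.11.15, NumPy 2.4.6, SciPy 1.17.1 and pysam 0.24.0 were used. Of 11 alternatives, 9 were planned and 2 (without antigen receptor intervals, and without chromosomes X and Y) were chosen after seeing the data. A few named items are not reported here.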

Additional observations from a re-analysis of the deposited data

Results flagged for a closer look

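Domains under 150 bp in deserts were not members under the rule. They counted above only where they overlapped a domain of another list, and in the shares given for domains of any width. Their number was above that of the no Dox control, 5020 (upper 95% Poisson limit 5161), in 3 lists, with 5724 in EBs, 5332 in progenitors and 6522 in iHoxc6. It was not above it in iHoxc9 (4431) or iHoxc10 (2568). Deserts held 10.8% of all domains under 150 bp in EBs, 11.5% in progenitors, no Dox and iHoxc10, 13% in iHoxc6 and 13.7% in iHoxc9. The limit covers counting only, and calling settings of the no Dox list cannot be told apart from its group.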

How the results depend on the processing

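No paired analysis was possible because 1 list was made from both samples of a group, and no sample could be left out for the same reason. Depth per domain is unknown and limits all results. Merging neighbouring domains across short gaps, leaving out the antigen receptor intervals and leaving out chromosomes X and Y moved none of the 14 main shares beyond their intervals. The other alternatives moved shares, and where construction does not give the cause, the cause was not tested. Values are in the order EBs, progenitors, no Dox, iHoxc6, iHoxc9 and iHoxc10 for desert shares, and iHoxc6, iHoxc9, iHoxc10 for induction. With a TSS distance of 100 kb the desert shares were 15, 19.4, 19.8, 19.3, 19.5 and 18.1%, EBs held 29.2% of progenitor domains, and the induction-associated share of iHoxc9 was 25.2%. With 500 kb they were 2.79, 2.96, 2.97, 2.95, 3.64 and 2.79%, EBs held 25.1%, induction-associated were 12.1% in iHoxc6 and 32.9% in iHoxc9, and 35.5% were lost in iHoxc10. With no minimum width the desert shares were 9.05, 10.1, 9.93, 10.9, 11.4 and 9.26%, EBs held 22.6% of progenitor domains, progenitors held 43.9% of no Dox domains, 46.6, 48.1 and 29.8% were induction-associated, and 19.8, 41.9 and 39.5% were lost. With a minimum of 300 bp these were 4.72, 6.7, 6.98, 6.57, 6.64 and 6.09%, 29%, 80.2%, 3.42, 19.9 and 7.4%, and 9.04, 32.7 and 26.6%. With TSS of all gene types the desert shares were 0.285, 0.347, 0.353, 0.343, 0.435 and 0.319%, EBs held 24.3%, progenitors held 60.4%, 13.5, 42.2 and 17.6% were induction-associated, and 29.6% were lost in iHoxc10. With lists cut to the widest 31062 domains, desert shares were 5.75, 7.49, 7.19 and 7.45% up to iHoxc6, EBs held 15.5%, progenitors held 55.1%, 26.7, 52.8 and 37.3% were induction-associated, and 18.5% were lost in iHoxc6 and 28.9% in iHoxc10. With an overlap of 50% of the narrower domain, progenitors held 67.4% of no Dox domains, and 12.8% in iHoxc6 and 17.5% in iHoxc10 were induction-associated. When only domains of 150 bp or more of the other list counted, EBs held 18%, progenitors held 52.5%, 22.3, 40.4 and 26.1% were induction-associated, and 20.3, 48.5 and 39.8% were lost.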

Other observations

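The sex chromosomes held 1.28 to 1.99% of desert domains and 2.12 to 2.48% of all wide domains per list. Chromosome X had 33.6 Mb of desert and 0.862 to 1.58 desert domains per Mb, and chromosome Y had 31.6 Mb and 0.19 to 0.285 per Mb, compared with 4.54 to 6.54 per Mb over all deserts.

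Several genes of the flanking lists had more desert domains in EBs than in any later list, among them Zeb2 (27, against 11 to 24) and Pcdh7 (30, against 14 to 23). Csmd3 and Gata3 are given as examples, chosen after their values were seen. Beside Csmd3, which encodes a large membrane protein of neurons, EBs had 24 desert domains and the other lists 4 to 10. Beside Gata3, of the transcription factor list, EBs had 14, progenitors 11, no Dox 7, iHoxc6 1, iHoxc9 6 and iHoxc10 5.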
